A study of Mus musculus with 10 samples.

Results

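Open chromatin was described at the genes of 8 transcription regulators of blood stem and progenitor cells: the ETS factors Erg, Fli1, Etv6, Spi1, Ets1 and Elf1, and the complex members Lmo2 and Lyl1. ATAC-seq peaks of 8 libraries on chromosomes 1 to 19 and X were merged into 103446 regions. Of these, 224 were kept because the middle of the region lay inside 1 of the 8 genes, or because 1 of them was the nearest protein-coding gene within 100 kb. Etv6 took 75 of the regions, Erg 40, Fli1 28, Lmo2 28, Elf1 21, Ets1 19, Spi1 11 and Lyl1 2.

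ETS factors share a winged DNA-binding domain that reads a purine-rich core with the bases GGAA. Erg and Fli1 maintain blood stem cells, Etv6 is a repressor needed for their persistence in adult marrow, and Spi1 encodes PU.1, whose dose steers progenitors towards myeloid and lymphoid fates. Lmo2 is a LIM-domain bridge that does not bind DNA itself, and Lyl1 is a basic helix-loop-helix factor that binds E-boxes. Together with Tal1, Gata2, Runx1, Erg and Fli1 they occupy many of the same enhancers in progenitors, including those of one another.

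The cells were HSPCs, the haematopoietic stem and progenitor fraction that lacks lineage markers, of C57BL/6 mice, taken from femur and tibia marrow with a lineage depletion kit, at 100000 cells per library. There were 2 libraries each of wild-type (WT) mice, of Npm1flox-cA/+;Mx1-Cre+ mice (Npm1c), of Flt3ITD/+ mice (Flt3-ITD) and of Npm1flox-cA/+;Flt3ITD/+;Mx1-Cre+ mice (the double mutant, DM). Npm1c is a humanised frameshift mutation that sends nucleophosmin to the cytoplasm, and Flt3-ITD is an internal tandem duplication that keeps the FLT3 receptor active. Mx1-Cre is driven by an interferon-responsive promoter and acts in many cells besides HSPCs. It is named for the Npm1c and DM mice only, so the Npm1c allele and the Cre cannot be told apart. The labels used here give no ages and do not say whether libraries of a genotype came from separate mice, so each p-value measures the spread between these libraries, which may be technical.

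The lists held 43825 to 80916 peaks per library and covered 24.2 to 50.2 Mb, least in the 2 Flt3-ITD libraries. WT replicate 1 had the longest list and stood apart at the 8 genes: it had peaks in 191 of the 224 regions (85.3%) against 133 (59.4%) in WT replicate 2, and all 133 were among the 191. With Npm1c the counts were 151 and 163, with Flt3-ITD 86 and 107, and in DM 111 and 124. The lists give no peak height and no read depth, so a region was present or absent in a library and a region without a peak may still be open below the caller's threshold. Peaks covered regions at all 6 HSPC marker genes (Kit, Cd34, Gata2, Meis1, Myb and Runx1) in every library. Bulk libraries cannot tell fewer cells with an open region from a less open region in each cell.

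Promoter sequences (250 bases before and 50 after a RefSeq start, GRCm38) were held for 4 of the 8 genes and are shown for the starts that lay in open chromatin, to set the ETS core beside the accessibility of genes that encode ETS factors and their partner. Capitals mark GGAA and its reverse complement TTCC. Of all 32851 promoter windows, 96% held this core at least once, with a mean of 3.52 matches, so its presence is ordinary.
Erg, internal start, chr16:95459299-95459598, minus strand: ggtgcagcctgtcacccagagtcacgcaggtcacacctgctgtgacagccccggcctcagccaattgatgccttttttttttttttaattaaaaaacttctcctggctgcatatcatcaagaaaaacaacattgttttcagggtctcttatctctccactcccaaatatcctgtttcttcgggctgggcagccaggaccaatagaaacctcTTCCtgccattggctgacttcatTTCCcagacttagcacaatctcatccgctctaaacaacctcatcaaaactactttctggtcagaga
Etv6, chr6:134035450-134035749, plus strand: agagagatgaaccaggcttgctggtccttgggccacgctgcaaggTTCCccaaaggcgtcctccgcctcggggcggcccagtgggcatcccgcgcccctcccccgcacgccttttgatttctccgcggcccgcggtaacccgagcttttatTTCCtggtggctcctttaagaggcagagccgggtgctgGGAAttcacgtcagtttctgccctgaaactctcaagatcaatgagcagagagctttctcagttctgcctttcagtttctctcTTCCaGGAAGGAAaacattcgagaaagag
Elf1, first start, chr14:79480944-79481243, plus strand: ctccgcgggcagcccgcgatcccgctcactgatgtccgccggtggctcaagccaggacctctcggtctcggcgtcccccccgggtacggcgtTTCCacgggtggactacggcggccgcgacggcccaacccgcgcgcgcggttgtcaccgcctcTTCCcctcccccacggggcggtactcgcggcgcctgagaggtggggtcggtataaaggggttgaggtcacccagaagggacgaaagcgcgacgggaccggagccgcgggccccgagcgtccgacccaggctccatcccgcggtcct
Elf1, internal start, chr14:79515424-79515723, plus strand: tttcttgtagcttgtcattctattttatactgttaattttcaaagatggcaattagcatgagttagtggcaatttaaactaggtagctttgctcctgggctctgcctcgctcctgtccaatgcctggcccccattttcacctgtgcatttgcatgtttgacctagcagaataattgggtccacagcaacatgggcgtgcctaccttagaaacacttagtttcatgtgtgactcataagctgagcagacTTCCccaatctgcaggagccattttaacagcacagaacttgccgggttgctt
Lyl1, chr8:84701207-84701506, plus strand: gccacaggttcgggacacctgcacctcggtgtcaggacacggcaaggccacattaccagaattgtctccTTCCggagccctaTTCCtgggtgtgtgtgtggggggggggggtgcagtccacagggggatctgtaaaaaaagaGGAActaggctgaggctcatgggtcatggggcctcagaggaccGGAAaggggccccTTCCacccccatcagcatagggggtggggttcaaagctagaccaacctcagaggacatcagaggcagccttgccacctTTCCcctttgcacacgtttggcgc
The core occurred 6 times in the Etv6 window, 6 times in the Lyl1 window, 2 times in the first Elf1 window, 1 time in the internal one and 2 times in the Erg window, counting both strands. The longer ETS motif CCGGAAG, which contains the core, was found 1 time in the Lyl1 window and in none of the other 4, and in 8.86% of all windows. The Lyl1 window held 1 E-box (CANNTG), the Erg window 2 and the internal Elf1 window 3, and 72.3% of all windows held at least 1. The GATA motif AGATAA occurred 1 time in the Erg window and in 11.2% of all windows, and the RUNX motif TGTGGT (16.8% of all windows) in none of the 5. The windows at Etv6, Elf1 (both) and Lyl1 overlapped regions with a peak in all 8 libraries, and the Erg window overlapped a region that both Flt3-ITD libraries lacked.

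To compare genes, the bases covered by peaks in a gene's regions were divided by the Mb covered in the whole library. At Lmo2 the 8 libraries held 411 and 397 covered bases per Mb for WT, 425 and 400 for Npm1c, 262 and 351 for Flt3-ITD, and 152 and 161 for DM. Both DM libraries lay far below the other 6, and the DM mean was 156 ± 6.36 against 404 ± 9.9 in WT (SD, n = 2 each). The pattern at Elf1 differed, with 348 and 344 for WT, 504 and 514 for Npm1c, 249 and 270 for Flt3-ITD, and 180 and 199 for DM. No 2 genotypes overlapped there, in the order Npm1c, WT, Flt3-ITD, DM. Etv6 was lowest with Flt3-ITD alone: 783 and 639 for WT, 819 and 888 for Npm1c, 449 and 443 for Flt3-ITD, and 632 and 649 for DM. Its WT and DM values overlapped. Spi1 ran the other way, with 155 and 98.8 for WT, 96.4 and 78.1 for Npm1c, 214 and 174 for Flt3-ITD, and 203 and 205 for DM, so that all 4 libraries with the Flt3-ITD allele lay above all 4 without it. Erg held 370 and 384 for WT, 472 and 416 for Npm1c, 334 and 336 for Flt3-ITD, and 499 and 431 for DM. The lowest Erg values were those of Flt3-ITD, and Npm1c and DM overlapped. Fli1 ranged from 276 to 364 and Ets1 from 103 to 157 over the 8 libraries, and WT and Npm1c overlapped at both.

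**Figure D1:**
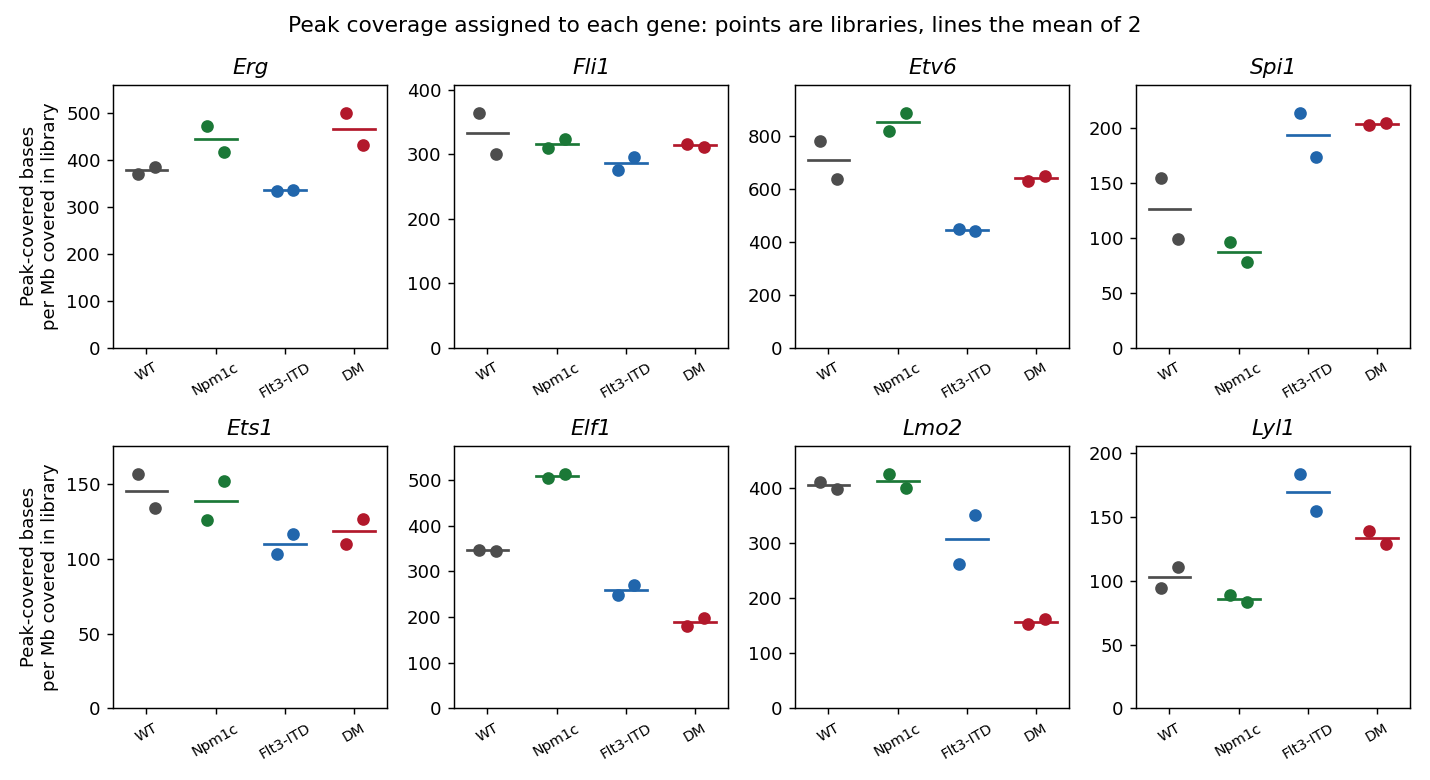
Peak-covered bases per Mb covered in the library (vertical axis, from 0, scaled per gene) for the 8 genes, by genotype. Points are single libraries and lines the mean of 2; the DM points of Lmo2 (152 and 161) and Elf1 (180 and 199) are the lowest of their panels.

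Lmo2 had the largest difference between DM and WT of the 7 genes with at least 3 regions, the minimum for the test. Its covered bases per Mb were lower in DM than in WT by −1.31 ± 0.12 on the log2(value + 10) scale (SE; adjusted p = 0.000104, limma with Benjamini-Hochberg adjustment over 10822 genes). DM was also lower than Npm1c, by −1.34 ± 0.12 (limma adjusted p = 2.38e-05), and than Flt3-ITD, by −0.91 ± 0.12 (limma adjusted p = 0.00104), a call lost with 50% of a region required to be covered and without scaling. Npm1c alone did not pass against WT, at 0.03 ± 0.12 (limma adjusted p = 0.873). The Flt3-ITD effect was larger in the presence of Npm1c than in its absence, with an interaction of −0.94 ± 0.17 (limma adjusted p = 0.00555), which did not pass with regions assigned within 50 kb, with 50% of a region required to be covered, or without scaling. Flt3-ITD against WT was −0.40 ± 0.12 (limma adjusted p = 0.036), and that call was lost in 11 of 17 alternative settings.

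The Lmo2 gene lies at chr2:103957903-103981878, and 18 of its 28 regions were outside the gene. At Lmo2, 19 regions were open in both WT libraries. Of these, 15 were also open in both Npm1c libraries, 10 in both Flt3-ITD libraries and 5 in both DM libraries. Over all the listed genes, Lmo2 included, 133 regions were open in both WT libraries. Of those, 121 were open in both Npm1c libraries, 71 in both Flt3-ITD libraries and 73 in both DM libraries. Such counts were not made over all regions, and the lists differed in length, so they cannot be set against a background. Lmo2 is known to depend on several enhancers spread over the upstream flank. In all, 4 of its regions had peaks in all 6 libraries of the other genotypes and in neither DM library. The widest of them, chr2:103894946-103897302, was centred 61.8 kb outside the gene and had 1871 and 2039 covered bases for WT, 2105 and 2320 for Npm1c, 779 and 1330 for Flt3-ITD, and 0 for both DM libraries. The region over the low-coordinate end of the gene, chr2:103956735-103959012, had 2073 and 2054 covered bases for WT, 2207 and 2265 for Npm1c, 741 and 1538 for Flt3-ITD, and 0 for both DM libraries. In both regions DM had no peak. The Flt3-ITD libraries had fewer covered bases there than the WT and Npm1c libraries, without division by the covered Mb. After that division, Flt3-ITD overlapped WT at both regions. The other 2, chr2:103888044-103888586 and chr2:103881030-103881495, were narrower, with at most 535 and 418 covered bases in any library.

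Not all of Lmo2 was without peaks in DM. The widest region inside the gene, chr2:103968177-103971572, had a peak in all 8 libraries, with 3199 and 2947 covered bases for WT, 3281 and 3197 for Npm1c, 1516 and 2260 for Flt3-ITD, and 1632 and 1501 in DM. In covered bases, Flt3-ITD and DM thus overlapped at this internal region and lay below the other 4 libraries. These bases were not divided by the covered Mb, which was also lower in Flt3-ITD and DM than in those 4 libraries. After division, DM still lay below the 4, while Flt3-ITD overlapped them. The region chr2:103944781-103946363, 12.3 kb from the low end, and chr2:103982138-103982652, just beyond the high end, also had peaks in all 8. When every list was reduced to its 43825 widest peaks, 3 of the 4 regions missing only in DM kept that pattern, all except chr2:103881030-103881495.

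**Figure D2:**
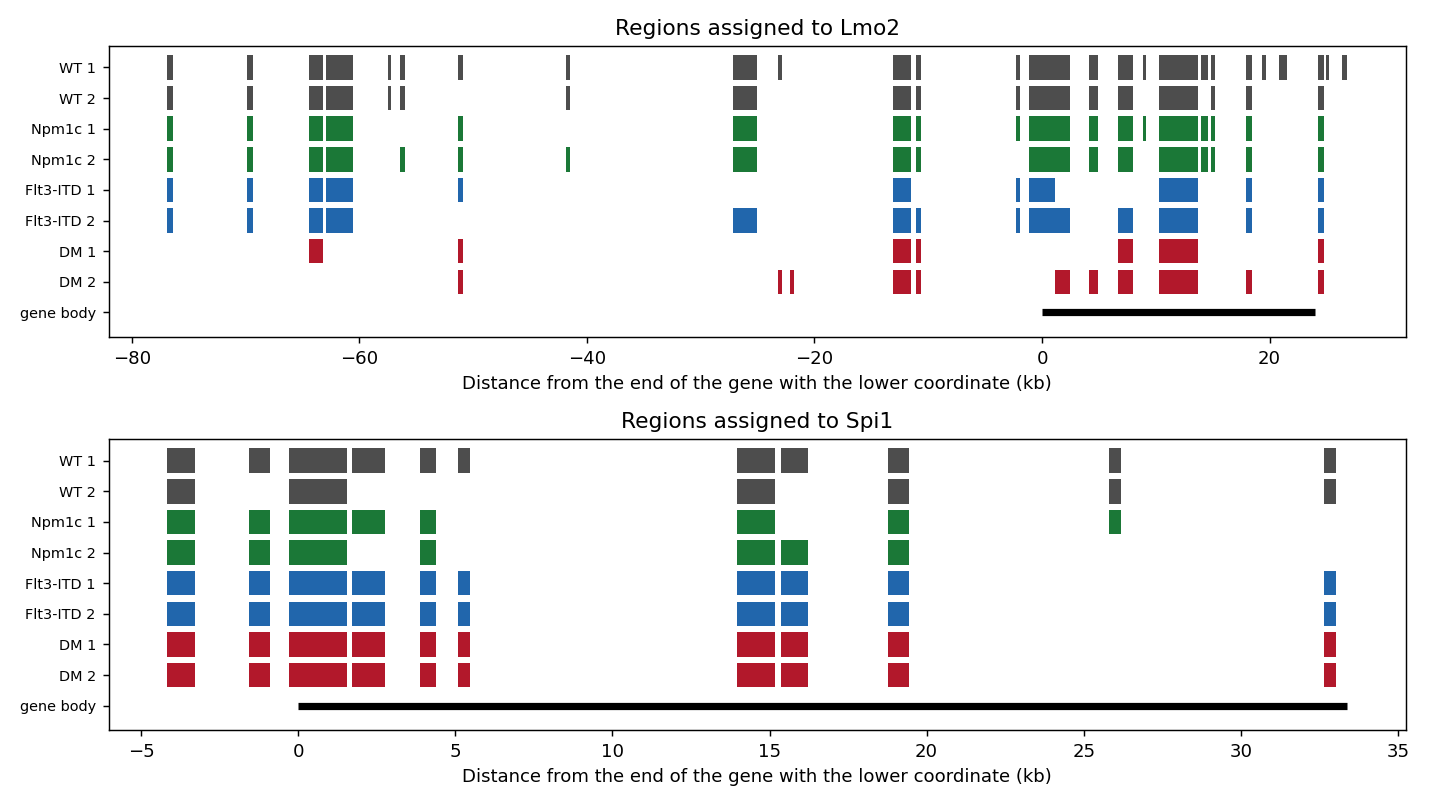
Regions assigned to Lmo2 and Spi1, by library (rows), against the distance in kb from the end of the gene with the lower coordinate. A bar is the whole merged region wherever the library had a peak in it, not the peak's own extent, narrow regions are drawn at a minimum width, and the black bar is the gene; at Lmo2 the DM rows are empty at −76.6, −69.6 and −61.8 kb and over the low end, where the other 6 rows have bars.

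Lyl1 had only 2 regions, which together span the gene (chr8:84701423-84704716) apart from a short gap, and both had peaks in all 8 libraries. The promoter region chr8:84700683-84702382 had 1374 and 1238 covered bases for WT, 1258 and 1107 for Npm1c, 1255 and 1419 for Flt3-ITD, and 1220 and 1445 in DM. These values overlapped between WT, Flt3-ITD and DM. Over both regions the covered bases were 4757 and 4428 for WT, 3507 and 3600 for Npm1c, 4466 and 4601 for Flt3-ITD, and 4169 and 4362 for DM, so Npm1c was lowest and the libraries with Flt3-ITD lay within or below the WT range. Divided by each library's covered Mb, Lyl1 was higher in Flt3-ITD than in WT by 0.67 ± 0.12 (SE; limma adjusted p = 0.00921) and in DM than in WT by 0.35 ± 0.12 (limma adjusted p = 0.0479). DM was also higher than Npm1c, by 0.58 ± 0.12 (limma adjusted p = 0.00478), with more covered bases as well. These 3 differences come from a fit with genes of 1 or more regions, since Lyl1 was below the minimum of 3, and the 2 against WT stand beside a lower covered total in the libraries with Flt3-ITD and no higher number of covered bases at Lyl1.

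Erythroid marker genes (6 genes, 25 regions), which LMO2 complexes are known to serve in red cell precursors, held 389 to 542 covered bases per Mb in the 6 WT, Npm1c and Flt3-ITD libraries and 165 and 126 in DM. All 6 genes had a peak in every library apart from Alas2, without one in DM replicate 2. Monocyte and dendritic marker genes (8 genes, 130 regions, each gene with a peak in every library) held 322 to 608 without the Flt3-ITD allele, 965 and 830 with it alone, and 1690 and 2052 in DM. Neutrophil markers (7 genes, 21 regions) held 165 and 161 in DM and 69 to 115 in the other 6, with Ngp at 0 in all 8 libraries. Camp had a peak in WT replicate 1 and both Npm1c libraries and in neither DM nor Flt3-ITD library. HSPC markers (6 genes, 157 regions) held 1408 and 1402 in DM and 1502 to 1729 elsewhere, and mast and basophil markers (5 genes, 14 regions) 10 and 22 in DM, 27 and 25 with Flt3-ITD alone and 56 to 98 in WT and Npm1c. Fcer1a had no peak in any library. B markers (6 genes, 27 regions) held 183 and 278 in DM and 57 to 113 in the other 6. Of these genes, Cd79a and Vpreb1 had no peak in any library. Stroma and endothelium markers (5 genes, 37 regions) held 295 and 306 in DM and 137 to 210 in the other 6. T and NK markers (6 genes, 35 regions) held 196 and 227 in DM and 202 to 324 in the other 6. The erythroid markers were lowest in DM, as Lmo2 was, and the monocyte and dendritic markers were higher with the Flt3-ITD allele, as Spi1 was. Their part in the results at Lmo2 and Spi1 was not tested.

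Spi1 (chr2:91082374-91115759), which encodes PU.1, had more covered bases per Mb in libraries carrying the Flt3-ITD allele. In undivided bases WT replicate 1 was the highest, at 7805, against 5173 and 5176 for Flt3-ITD and 6093 and 6944 for DM. DM was higher than Npm1c by 1.14 ± 0.19 (SE; limma adjusted p = 0.000588), a call kept in all 17 alternative settings. DM was higher than WT by 0.67 ± 0.19 (limma adjusted p = 0.015) and Flt3-ITD higher than WT by 0.60 ± 0.19 (limma adjusted p = 0.0392). The DM against WT call was lost in 5 alternatives. These were the fits without WT replicate 2 (0.37), DM replicate 1 (0.68) or DM replicate 2 (0.67), with 50% of a region required to be covered, and without scaling. The Flt3-ITD against WT difference kept its call in 5 of 17, and it turned to −0.10 when bases were not scaled by the library's total.

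WT replicate 2 lacked 5 of the 11 Spi1 regions, and all 5 had peaks in WT replicate 1 and in the 4 libraries with Flt3-ITD. The region at the low-coordinate end, chr2:91082091-91083914, had 1656 and 899 covered bases for WT, 899 and 805 for Npm1c, 1578 and 1276 for Flt3-ITD, and 1518 and 1494 in DM. In these undivided bases, WT replicate 1 was the highest and WT replicate 2 was level with 1 Npm1c library. The small region chr2:91087445-91087845 had peaks in WT replicate 1 and in all 4 libraries with Flt3-ITD, at 205 to 371 covered bases, and in no other library. The region chr2:91115036-91115421, at the other end of the gene, was the 1 region of the 224 present in every library except both of Npm1c, against 1.2% of all regions. A region called throughout inside the gene, chr2:91096336-91097547, was centred 13.9 kb from the one at the low end and had 752 to 1212 covered bases. Regions inside a neighbouring gene were assigned to that gene, so Spi1 elements beyond its own body may be missing from this count.

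Erg (chr16:95359169-95586600) gained 4 of its 40 regions in DM against WT (10%, against 6.93% of all regions). It lost 7 in Flt3-ITD against WT (17.5% against 16.2%), near the share over all regions. DM was higher than Flt3-ITD by 0.46 ± 0.10 (SE; limma adjusted p = 0.00619), a call kept in all 17 alternatives. DM was higher than WT by 0.29 ± 0.10 (limma adjusted p = 0.029), but this call was lost without WT replicate 1 (0.27), WT replicate 2 (0.32) or DM replicate 1 (0.19) and with 50% of a region required to be covered (0.32), and turned to −0.18 without scaling. The widest Erg region, chr16:95438607-95441685, had 3019 and 3014 covered bases for WT, 3011 and 2920 for Npm1c, 1617 and 1982 for Flt3-ITD, and 2016 and 1597 in DM. In these undivided bases, all 4 libraries with the Flt3-ITD allele lay below all 4 without it. The covered Mb was lower in the same 4 libraries, and after division by it they overlapped those without the allele.

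The internal Erg promoter printed above lay in chr16:95458538-95459731, which had 1021 and 739 covered bases for WT, 796 and 1020 for Npm1c, 0 in both Flt3-ITD libraries, and 341 and 1021 in DM. The DM values thus spanned from below every WT and Npm1c library to the level of the highest. This region kept its pattern when the lists were reduced to equal length. The RefSeq windows of the other 2 Erg starts overlapped no region, and at the one nearest the high-coordinate end the closest region lay 599 bp away. Further into the gene, chr16:95487449-95489012 had 946 and 1278 covered bases for WT, 1547 and 1419 for Npm1c, and 0 in all 4 libraries with Flt3-ITD, also in lists of equal length. At Erg, 4 regions of 254 to 741 bp had peaks in both DM libraries and no other, the widest being chr16:95360047-95360787 with 599 and 741 covered bases. In lists of equal length this region and chr16:95426119-95426474 kept the pattern, and the others had no peak in any library.

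Fli1 (chr9:32422204-32543432), the closest relative of Erg, passed no gene-level comparison, and its differences lay between −0.20 and 0.13. DM against WT was −0.07 ± 0.10 (SE; limma adjusted p = 0.57). Its widest region, chr9:32539158-32542622, near the high-coordinate end, had 3462 and 2870 covered bases for WT, 2774 and 2902 for Npm1c, 2759 and 2527 for Flt3-ITD, and 2868 and 2496 in DM, with every genotype overlapping at least 1 other. Beside it, chr9:32542981-32543794 across that end had 814 and 520 covered bases in WT and 0 in the other 6 libraries. Inside the gene, chr9:32476423-32477111 had 260 to 689 covered bases in the 6 libraries of the other genotypes and 0 in DM. Fli1 thus had regions that differed in presence while its summed coverage passed no test.

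Etv6 (chr6:134035700-134270158) changed most with Flt3-ITD alone. It was lower than WT by −0.65 ± 0.10 (SE; limma adjusted p = 0.00224), in all 17 alternatives. DM was higher than Flt3-ITD by 0.51 ± 0.10 (limma adjusted p = 0.00405) and lower than Npm1c by −0.41 ± 0.10 (limma adjusted p = 0.00468), the former lost without scaling and the latter without Npm1c replicate 2 (−0.35). DM against WT did not pass (−0.14 ± 0.10, limma adjusted p = 0.251). The promoter region chr6:134034030-134037748 had 3282 and 3228 covered bases for WT, 3546 and 3623 for Npm1c, 2084 and 2159 for Flt3-ITD, and 2537 and 2651 in DM. In bases not divided by the covered Mb, no genotypes overlapped at this promoter, and Npm1c was highest. The covered Mb was lower in Flt3-ITD and DM than in WT and Npm1c, and after division by it both Flt3-ITD and DM overlapped WT at this promoter. The widest of the 224 regions, chr6:134040223-134046033, starts a few kb further in and spans 5811 bp. It had 5181 and 4563 covered bases for WT, 5600 and 5728 for Npm1c, 1104 and 2160 for Flt3-ITD, and 1977 and 2263 in DM, so that all libraries with Flt3-ITD lay below all without it.

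Along the rest of the Etv6 body, 11 regions had peaks in every WT and Npm1c library but in no Flt3-ITD or DM library. They lay between 42.5 and 202.8 kb from the low end, and 5 of the 11 kept that pattern in lists of equal length. The widest was chr6:134082279-134083776, with 836 and 621 covered bases in WT and 737 and 1462 in Npm1c. Another 4 were missing in Flt3-ITD alone and present in DM, the widest being chr6:134171759-134172689 with 862 and 678 covered bases in DM, 783 and 275 in WT, and 639 and 636 in Npm1c. None of those 4 kept the pattern in lists of equal length. The region chr6:134089727-134090652 was missing only in DM.

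Ets1 (chr9:32636241-32757820), a factor of lymphoid development, passed no gene-level comparison. Its lowest adjusted p was that of Flt3-ITD against WT (−0.37 ± 0.13 SE, limma adjusted p = 0.0581). Its widest region, chr9:32695331-32696978, had 1572 and 1481 covered bases for WT, 865 and 1121 for Npm1c, 773 and 830 for Flt3-ITD, and 750 and 762 in DM. All 6 mutant libraries lay below both WT libraries there, in bases not divided by the covered Mb. That total was highest in WT replicate 1 and lowest in Flt3-ITD replicate 1. After division by it, Npm1c and DM still lay below WT, while Flt3-ITD overlapped WT. Another region 73.9 kb into the gene, chr9:32709581-32710742, had 941 and 712 covered bases for WT, 618 and 1058 for Npm1c, 0 and 287 for Flt3-ITD, and 0 for both DM libraries.

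Elf1 (chr14:79481174-79582491), an ETS factor of the blood and endothelial lineages, was the 1 gene of the 7 tested that passed all 5 genotype comparisons. Npm1c was higher than WT by 0.54 ± 0.09 (SE; limma adjusted p = 0.00214), whereas Flt3-ITD was lower by −0.40 ± 0.09 (limma adjusted p = 0.00861) and DM by −0.83 ± 0.09 (limma adjusted p = 0.000151). The distance between DM and Npm1c was −1.38 ± 0.09 (limma adjusted p = 5.61e-06) and that between DM and Flt3-ITD −0.43 ± 0.09 (limma adjusted p = 0.00495). The interaction of the alleles was −0.98 ± 0.12 (limma adjusted p = 0.00159). Without scaling, the Npm1c against WT, DM against Flt3-ITD and interaction calls were lost, and without Flt3-ITD replicate 1 the Flt3-ITD against WT call was lost (−0.35).

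All 21 Elf1 regions lay inside the gene. The first promoter region, chr14:79480272-79483424, had 2708 and 2415 covered bases for WT, 3056 and 3080 for Npm1c, 1603 and 1904 for Flt3-ITD, and 1717 and 1568 in DM. The second, chr14:79515106-79517773, had 2394 and 1695 for WT, 2654 and 2668 for Npm1c, 758 and 979 for Flt3-ITD, and 1000 and 1296 for DM. Both promoters therefore had a peak in every library. In bases not divided by the covered Mb, Npm1c was highest and the 4 libraries with Flt3-ITD lay below the other 4. The covered Mb was also lower in the 4 libraries with Flt3-ITD. After division by it, Flt3-ITD lay above WT at the first promoter and DM overlapped WT. At the second promoter the 4 libraries with Flt3-ITD still lay below the other 4. Between these promoters, chr14:79486514-79488095 had 1334 and 1383 covered bases for WT, 1539 and 1575 for Npm1c, 689 and 1024 for Flt3-ITD, and 0 for both DM libraries. The same pattern held in lists of equal length. Of 16 Elf1 regions open in both WT libraries, 16 were open in both Npm1c libraries, 9 in both Flt3-ITD libraries and 6 in both DM libraries. Over all the listed genes, Elf1 included, the counts were 121, 71 and 73 of 133. Such counts were not made over all regions, and the lists differed in length.

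**Figure D3:**
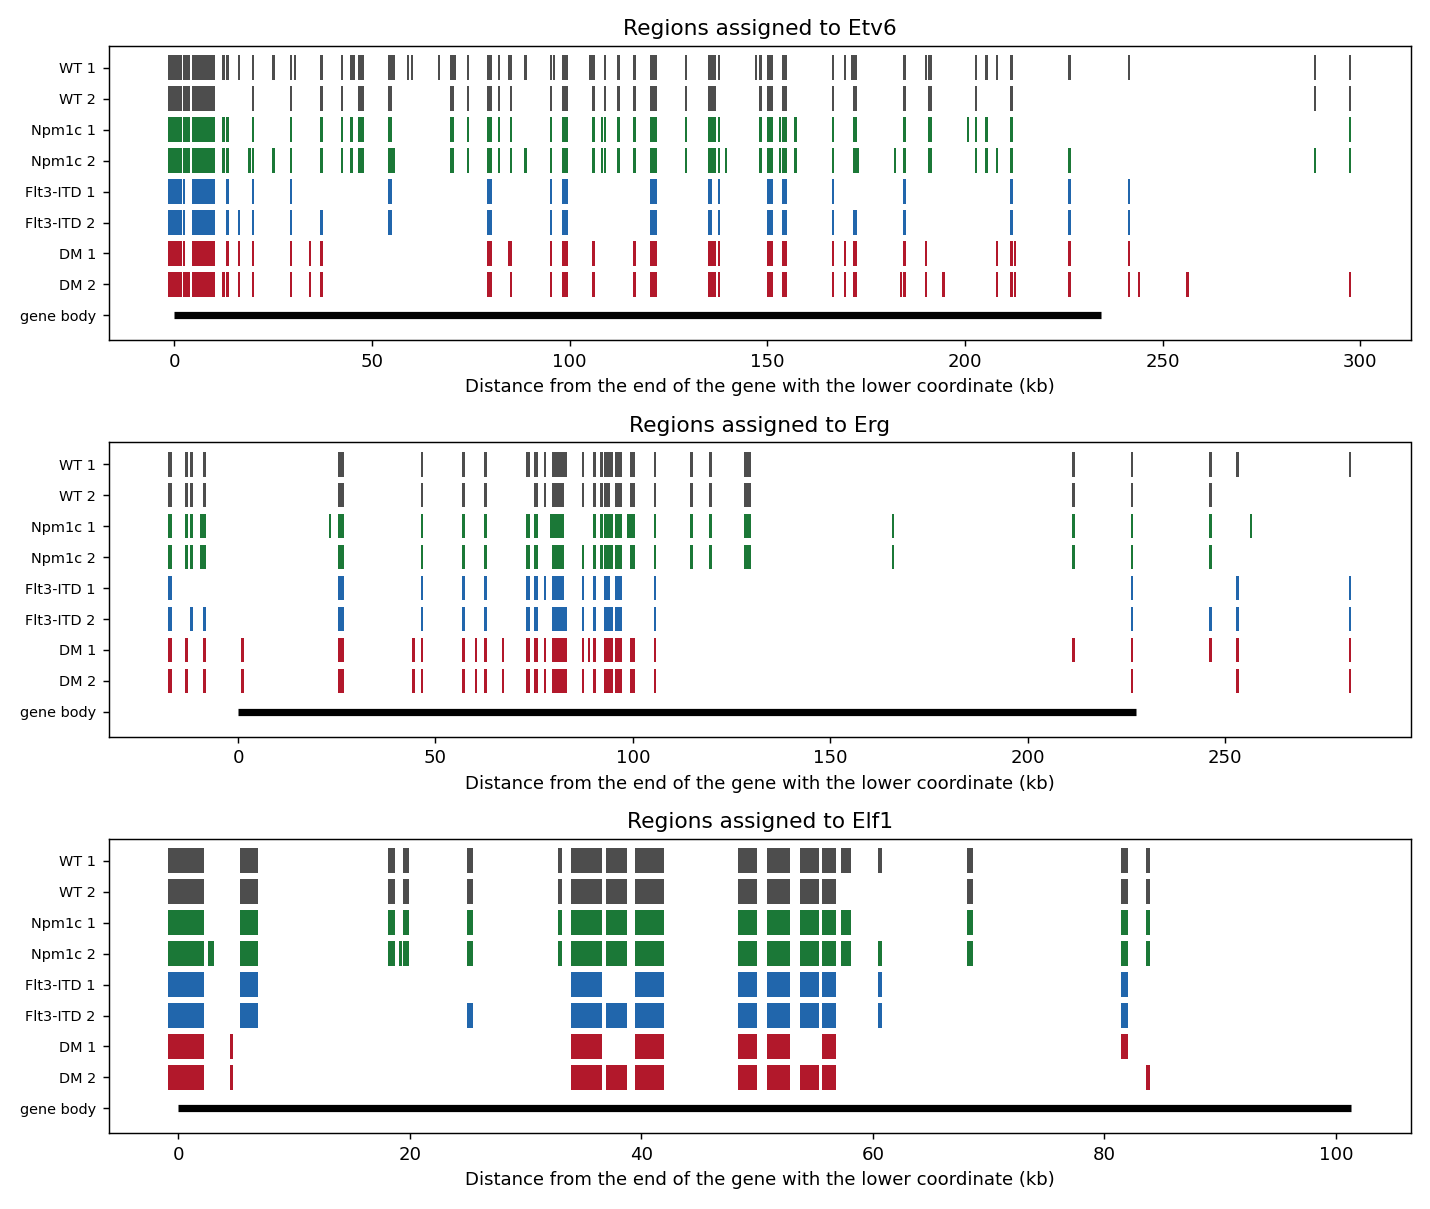
Regions assigned to Etv6, Erg and Elf1, by library (rows), against the distance in kb from the end of the gene with the lower coordinate. Bars are whole merged regions in libraries with a peak there, drawn at a minimum width, and black bars are genes; 11 Etv6, 4 Erg and 4 Elf1 regions have bars in all WT and Npm1c rows and in no Flt3-ITD or DM row.

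**Figure D4:**
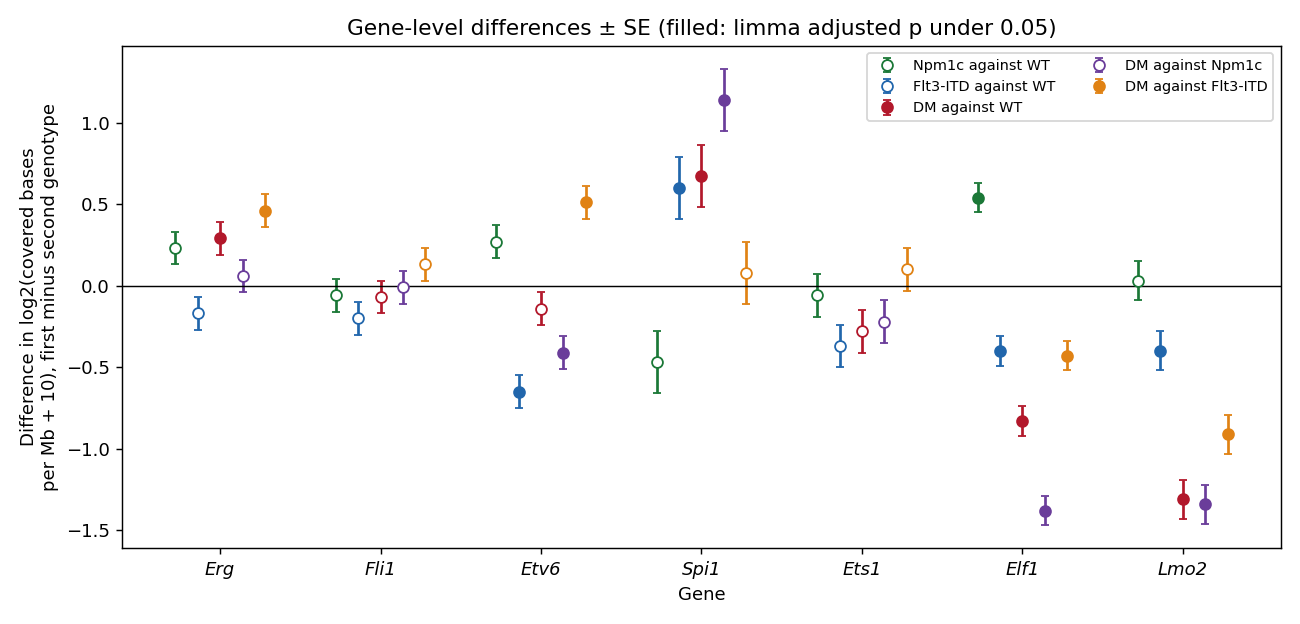
Difference in log2(covered bases per Mb + 10) between genotypes (vertical axis, ± SE of the limma fit) for the 7 genes with at least 3 regions, 5 comparisons each. Filled points have a limma adjusted p under 0.05: all 5 at Elf1 are filled, none at Fli1 or Ets1, and the DM against Npm1c points range from −1.38 (Elf1) to 1.14 (Spi1).

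The gene-level calls stood against high backgrounds. For Npm1c against WT, 1 of the 7 tested genes was higher and 0 lower, where 12.7% of all genes were higher and 20.9% lower. For Flt3-ITD against WT 1 was higher and 3 lower (12.8% and 18.2% of all genes), and for DM against WT 2 were higher and 2 lower (22.7% and 27.9%). For DM against Npm1c 1 was higher and 3 lower (33.5% and 30.8%), and for DM against Flt3-ITD 2 were higher and 2 lower (17.7% and 17.4%). The interaction was above 0 in 0 and below 0 in 2 of the 7 (18.2% and 12.6%). The median difference over the 7 genes was −0.37 for Flt3-ITD against WT and −0.14 for DM against WT, beside −0.03 and −0.04 over all genes. With counts this small and backgrounds this high, the shares do not set the 7 genes apart, and the comparisons share libraries with one another. Without scaling, the median over all genes moved to −0.64 for Flt3-ITD against WT, −0.45 for DM against WT and −0.28 for DM against Npm1c. The number of all genes higher and lower then became 346 and 1593 for Npm1c against WT (scaled: 1375 and 2258), 25 and 6398 for Flt3-ITD against WT (1380 and 1973) and 583 and 4782 for DM against WT (2456 and 3023). It became 1879 and 4160 for DM against Npm1c (3623 and 3334), 1483 and 427 for DM against Flt3-ITD (1918 and 1884) and 1733 and 227 for the interaction (1971 and 1368).

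Regions were also counted by presence. A region was taken as gained where both lists of the first genotype had a peak and both lists of the second had none, and as lost in the reverse case, with no test for a single region. Npm1c against WT gained 5 of the 224 (2.23%, against 2.71% of all regions) and lost 4 (1.79% against 6.26%). Flt3-ITD against WT gained 0 (0.852% of all regions) and lost 45 (20.1% against 16.2%). DM against WT gained 7 (3.12% against 6.93%) and lost 45 (20.1% against 20.9%). DM against Npm1c gained 18 (8.04% against 12.6%) and lost 46 (20.5% against 19.3%), and DM against Flt3-ITD gained 21 (9.38% against 10.6%) and lost 10 (4.46% against 3.44%). In the 3 comparisons of DM the shares lost lay near those over all regions, and the shares gained were below them. With every list reduced to its 43825 widest peaks, Flt3-ITD against WT gained 4 and lost 15, DM against WT gained 16 and lost 29, and DM against Flt3-ITD gained 10. Regions were merged anew for this, and the shares over all regions were not computed, so these counts cannot be set against a background. By gene, the share lost in DM against WT was 35.7% at Lmo2, 28.6% at Elf1, 28.6% at Fli1, 17.3% at Etv6, 12.5% at Erg, 10.5% at Ets1, 9.09% at Spi1 and 0% at Lyl1.

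**Figure D5:**
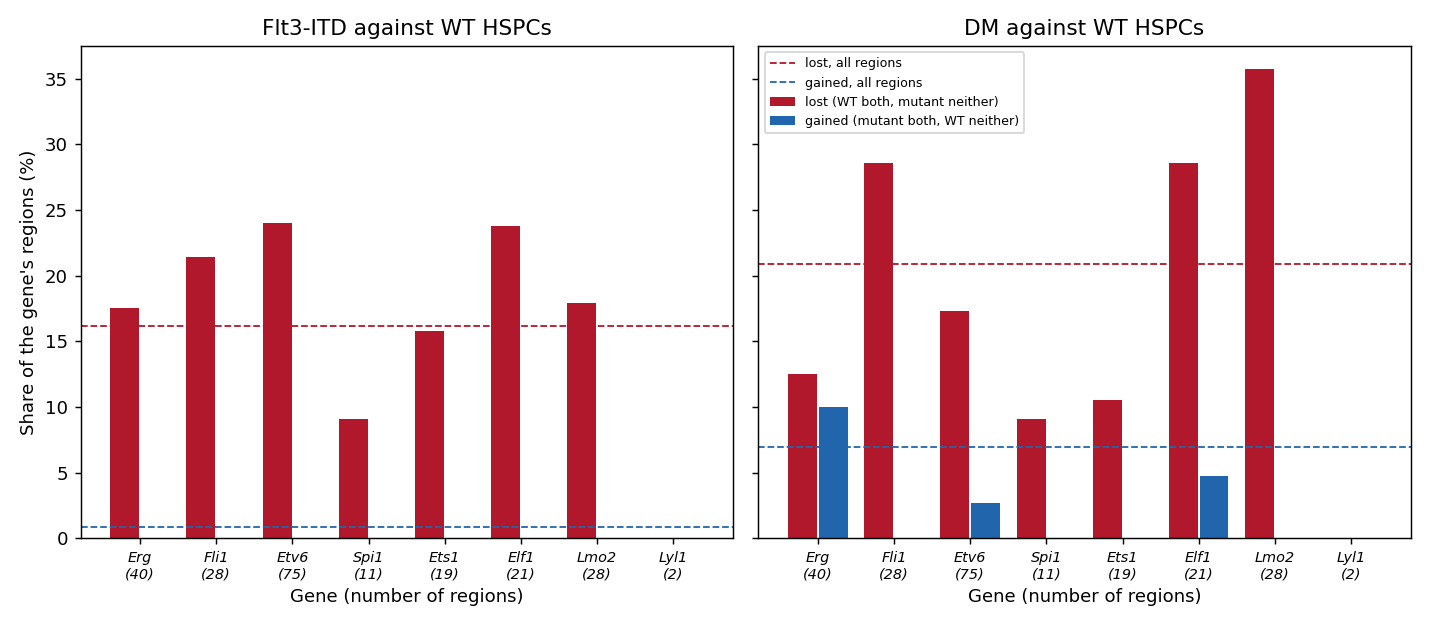
Share of each gene's regions (vertical axis, %) lost (red) or gained (blue) in Flt3-ITD and in DM against WT, with the number of regions under each gene. Dashed lines are the shares over all regions. Lmo2 has the highest lost share in DM (35.7%, against 20.9% of all regions), and no gene gained a region in Flt3-ITD. The bars are for lists of unequal length. In lists of equal length the losses were 15 in Flt3-ITD and 29 in DM, from 45 each, with no share over all regions computed.

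Regions that followed 1 allele were counted over 4 against 4 libraries. All 4 libraries without Flt3-ITD had a peak and all 4 with it had none at 23 of the 224 regions (10.3%, against 8.38% of all regions), of which 11 were at Etv6, 4 at Erg, 4 at Elf1, 3 at Fli1 and 1 at Lmo2. The reverse was seen at 0 (0.566% of all regions). For the Npm1c allele both counts were 0 (0.156% with it only and 0.204% without it only, over all regions). By a two-sided Fisher exact test those 23 regions reached p = 0.0286, the smallest 4 against 4 allows, and an adjusted p of 0.32 over all regions, so 0 members passed for either allele (0% of all regions for each), while at an unadjusted p under 0.05 there were 23 for Flt3-ITD and 0 for Npm1c. In lists of equal length 7 of the 23 kept the pattern, against 21.5% of all regions with it: 5 at Etv6, 1 at Erg and 1 at Elf1.

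Regions that set 1 genotype apart from the other 6 libraries were also counted. DM alone lacked 8 (3.57%, against 2.78% of all regions), 4 of them at Lmo2 and 1 each at Fli1, Etv6, Ets1 and Elf1, and 7 of the 8 kept the pattern in lists of equal length (83.3% of all such regions). DM alone had 7 (3.12% against 5.13%), of which 4 were at Erg, 2 at Etv6 and 1 at Elf1, and 2 of the 7 kept the pattern in lists of equal length (33% of all such regions). Flt3-ITD alone lacked 8 (3.57% against 1.15%), 4 at Etv6, 2 at Erg and 2 at Ets1, but 1 of the 8 kept the pattern in lists of equal length (7.63% of all such regions), namely the internal Erg promoter. Flt3-ITD alone had 0 (0.209%). Npm1c alone had 5 (2.23% against 2.38%), 3 at Etv6 and 2 at Erg, and lacked 1 (1.2%), the Spi1 region given above. WT alone had 2 (0.893% against 3.02%), 1 at Fli1 and 1 at Lmo2, and lacked 0 (0.0164%).

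Among the 224 regions, a peak was present in all 8 libraries at 56 of them (25%, against 25.3% of all regions) and in 1 library only at 40 (17.9% against 18.5%), of which 19 were in WT replicate 1. The 56 had a median width of 1061 bp, those in 1 library 255.5 bp and those in 2 to 7 libraries 455 bp. Of the 224, 178 (79.5%) lay inside their gene, a feature that the choice of regions used, beside 59.6% of all regions inside a gene. Among the 8 missing only in DM, 5 lay outside a gene, and among the 23 missing with the Flt3-ITD allele, 1 did. Over the 224, the median width was 485.5 bp against 435 bp over all regions.

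The partner genes of LMO2 and LYL1 were a list of 16, all tested, with 318 regions, and it holds Gata2 and Runx1, which are also HSPC markers here. In DM against WT 7 were lower and 2 higher (27.9% and 22.7% of all genes), with a median of −0.28 over the list beside −0.04 over all genes. The 7 were Tal1 (−0.86 ± 0.12), the helix-loop-helix partner of LMO2, Gata1 (−1.06 ± 0.17) and Gata2 (−0.82 ± 0.16), the E-proteins Tcf3 (−0.65 ± 0.13) and Tcf12 (−0.28 ± 0.10), and the LDB-stabilising Ssbp2 (−0.65 ± 0.10) and Ssbp3 (−0.41 ± 0.10), each with its SE. The 2 higher genes were the LIM-binding cofactor Ldb2 (2.01 ± 0.30, with only 5 regions) and the corepressor Cbfa2t3 (0.42 ± 0.12). In Flt3-ITD against WT 1 was higher and 3 lower (12.8% and 18.2% of all genes), and in Npm1c against WT 3 were higher and 6 lower (12.7% and 20.9%). The interaction passed at 6, 4 below 0 and 2 above (12.6% and 18.2%), with Tal1 (−1.10 ± 0.17), Gata1, Lmo1 and Ssbp2 below 0, as Lmo2 was, and Ldb2 and Cbfa2t3 above 0.

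Of 20 other ETS genes, 19 had a region, 139 in all, and 14 were tested. In DM against WT 3 were higher and 4 lower (22.7% and 27.9% of all genes), with a median of −0.03 beside −0.04 over all genes. Spib, a close relative of Spi1, was higher by 0.92 ± 0.20 (SE; limma adjusted p = 0.00491), as Spi1 was by 0.67 ± 0.19. Etv1 and Etv5 were the other two, and Elf3, Elf5, Elk3 and Elk4 were lower. In DM against Npm1c 6 were higher and 3 lower (33.5% and 30.8% of all genes), with a median of 0.19 beside 0.03.

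Over the 8 libraries, the genes whose log2 covered bases per Mb followed a listed gene most closely were taken from 7106 genes with at least 5 regions, by Pearson's r. For Lmo2 they were Gpc4 (0.996), Usp24 (0.995) and Opn4 (0.995), and for Elf1 they were 4930523C07Rik (0.995), Lancl2 (0.995) and Trim44 (0.992). For Spi1 they were Lst1 (0.991), Hfe (0.990) and Inpp4a (0.990), and for Etv6 Abca8b (0.990), Ptprr (0.989) and Trim52 (0.988). Lyl1 was followed by Ctc1 (0.995), Tfap4 (0.990) and Atp13a2 (0.988), Erg by Dnaja2 (0.966), Wdr11 (0.958) and Acvr2a (0.953), Ets1 by Fam169b (0.959), Ndufb6 (0.938) and Rfc1 (0.927), and Fli1 by Slc1a2 (0.917), Bbs9 (0.910) and Ifngr1 (0.908). Each r is a description over 8 points that share libraries, library scaling and 4 genotypes, and the best of 7106 genes is high by selection.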

How the data were processed

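Per the labels, ATAC-seq libraries were made from 100000 cells with 30 min of tagmentation. Bowtie2, MACS2 and the mm10 build are named in the submitters' processing notes; versions, thresholds, read filters, duplicate removal and any shift of reads for the Tn5 cut are not given in the sources used here. Each list deposited by the authors holds the chromosome, start and end of peaks of 1 library, with no score, so the depth is unknown and no interval that needs it is given. The narrowest listed peak was 200 bp. WT neutrophils were not analysed here.

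Peaks sharing at least 1 bp were merged, and regions were assigned to 21627 protein-coding RefSeq genes of GRCm38 (the same assembly as mm10) by their midpoints. Of all regions, 94.8% were assigned, to 16613 genes. Coordinates count from 1. The gene table gives no exons and no strand, so no exon, intron or UTR is stated and positions are given from the low-coordinate end. RefSeq promoter windows were held for Erg (3), Elf1 (2), Etv6 (1) and Lyl1 (1), 4 of the 8 genes.

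Covered bases per gene and library were divided by the library's covered Mb, and log2(value + 10) was fitted with limma (3.58.1, R 4.3.3, mean-variance trend) over 10822 genes with at least 3 regions and all 8 libraries, with genotype means, contrasts and Benjamini-Hochberg adjustment. A difference on this scale understates changes of low values. Presence in 4 against 4 libraries was tested by a two-sided Fisher exact test (SciPy 1.17.1). Thresholds were an adjusted p of 0.05. Exact tests of 2 against 2 libraries were not used. On simulated data for DM against WT (10822 genes), the limma step recovered 71% of log2 changes of 1 and 89% of changes of 2 and called 2 unchanged genes. Alternatives were equal list lengths, leaving out the narrowest 25% of peaks, requiring 50% of a region to be covered, a 50 kb distance, each library left out, no scaling, pseudocounts of 2 and 50, genes with 1 or more regions, and a replicate block.

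The 8 genes, the 2 gene lists and the marker lists were chosen with earlier results of these data known. Regions named are those at gene starts or ends, those following an allele or 1 genotype, the widest in all 8 libraries and the 2 widest gained and lost per comparison, of which the text gives a selection. The Lmo2 regions 12.3 kb from the low end and just beyond the high end, and the Spi1 region centred 13.9 kb from the low-end one, were named after their values were seen. So were the single genes of the 2 gene lists, which were meant to be described by counts.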

Additional observations from a re-analysis of the deposited data

Results flagged for a closer look

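At 2 of the genes, the effect of the Flt3-ITD allele differed by a test between mice with and without Npm1c. At Elf1 the difference of the effects was −0.98 ± 0.12 on the log2(covered bases per Mb + 10) scale (SE; limma adjusted p = 0.00159): Flt3-ITD lay below WT by −0.40 and DM below Npm1c by −1.38. At Lmo2 it was −0.94 ± 0.17 (SE; limma adjusted p = 0.00555), from −0.40 without Npm1c and −1.34 with it. Over all 10822 genes, 12.6% had a negative and 18.2% a positive difference that passed.

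At Elf1 the Npm1c allele also went with opposite directions in the 2 backgrounds. Both Npm1c libraries lay above both WT libraries, with means 163 covered bases per Mb apart, and both DM libraries lay below both Flt3-ITD libraries, with a difference of means of −70 covered bases per Mb. For this item the difference was read from the absence of overlap and was not itself tested, though it is the same contrast as the Elf1 interaction above. The 2 libraries of a genotype allow no check of single outlying libraries. Such a check, by the gap to the nearest value over the range, was run among the 4 libraries with or without each allele. It flagged no library.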

How the results depend on the processing

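Of 19 gene-level calls, each under 17 alternatives, 279 of 323 values kept direction and side of the threshold, 42 lost the threshold and 2 changed sign, both without scaling: Spi1 in Flt3-ITD against WT (−0.10) and Erg in DM against WT (−0.18). The calls kept in all 17 were Lmo2, Elf1 and Spi1 in DM against Npm1c, Lmo2 and Elf1 in DM against WT, Etv6 in Flt3-ITD against WT and Erg in DM against Flt3-ITD.

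Of 208 counts under alternatives, 161 stayed within 1.5 times. For regions gained and lost, the shares over all regions were not computed under the alternatives. In lists of equal length, regions gained and lost became 4 and 15 for Flt3-ITD against WT and 16 and 29 for DM against WT, those gained in DM against Flt3-ITD became 10, and genes passing in Npm1c against WT became 2. Without the narrowest 25% of peaks, Npm1c against WT lost 8 regions, Flt3-ITD against WT gained 1 and DM against Flt3-ITD lost 5, with 2 genes in Npm1c against WT and 4 in the interaction. With 50% of a region covered, DM against Flt3-ITD lost 4 regions, and 2 genes passed in Flt3-ITD against WT, 2 in DM against WT and 1 in the interaction, as did 1 in the interaction at 50 kb. Without scaling, 0 genes passed in Npm1c against WT, 1 in DM against Flt3-ITD and 0 in the interaction. A pseudocount of 50 gave 2 genes in Npm1c against WT and one of 2 gave 2 in Flt3-ITD against WT. Causes were not tested. Over all genes, the number passing moved from 3633 to 1939 (Npm1c against WT), 3353 to 6423 (Flt3-ITD against WT), 3802 to 1910 (DM against Flt3-ITD) and 3339 to 1960 (interaction) without scaling, to 1907 and 2528 (Flt3-ITD against WT, DM against Flt3-ITD) in lists of equal length, and to 1781 and 1800 (Npm1c against WT, interaction) with 50% covered. With a library left out, the lowest were 1497, 1451, 3463 (DM against WT, from 5479), 2136 and 1641.

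With 1 library left out at a time, gained and lost regions ranged from 5 to 20 and 5 to 35 for Npm1c against WT, 0 to 13 and 46 to 84 for Flt3-ITD against WT, 7 to 31 and 49 to 74 for DM against WT, 20 to 26 and 51 to 65 for DM against Npm1c, and 23 to 36 and 10 to 18 for DM against Flt3-ITD. A group left with 1 library calls a region from that library alone. Without WT replicate 1 the gained regions were 20 for Npm1c, 13 for Flt3-ITD and 31 for DM, and without WT replicate 2 the lost ones were 35, 84 and 74. Regions gained were also 13 and 11 in Npm1c against WT without Npm1c replicate 1 and 2, 2 in Flt3-ITD against WT without Flt3-ITD replicate 1, 13 in DM against WT without DM replicate 1, and 32 and 36 in DM against Flt3-ITD without Flt3-ITD replicate 2 and DM replicate 1. Regions lost were 10 in Npm1c against WT without Npm1c replicate 2 and 18 in DM against Flt3-ITD without Flt3-ITD replicate 1. Genes passing ranged from 1 to 2, 1 to 4, 2 to 4, 3 to 4 and 4 to 4 over these comparisons and from 2 to 4 for the interaction, and Fisher counts were 0 to 0 for both alleles. For Flt3-ITD against WT 2 genes passed without WT replicate 2, either Npm1c or either DM library and 1 without Flt3-ITD replicate 1, for DM against WT 2 without WT replicate 2 or DM replicate 1, for Npm1c against WT 2 without either WT library, and for the interaction 4 without WT replicate 2. In these fits the lone library was assumed to vary like the other groups.

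The labels do not say that equal replicate numbers share a mouse or day, and deviations of same-numbered libraries correlated at −0.162 to 0.116 over genes, so the numbers were not taken as pairs. With a replicate block 2 genes passed in Npm1c against WT. No paired version of the region counts was made, since they come from no test.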

Other observations

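Some other genes of the LMO2 and ETS lists passed with the Npm1c allele alone, where Lmo2 did not. Those named here were picked after their values were seen, and their calls were not checked under the alternatives. Of all genes, 12.7% were higher and 20.9% lower in Npm1c against WT. The shares were 12.8% and 18.2% in Flt3-ITD against WT, and 17.7% and 17.4% in DM against Flt3-ITD. In Npm1c against WT the corepressor gene Cbfa2t3 was lower by −0.87 ± 0.12 (SE; limma adjusted p = 0.00146) and Gata2 by −0.79 ± 0.16 (limma adjusted p = 0.00646), while the E-protein gene Tcf4 was higher by 0.56 ± 0.11 (limma adjusted p = 0.00612). With Flt3-ITD alone, Tcf4 was lower than WT by −0.82 ± 0.11 (limma adjusted p = 0.00172) and Cbfa2t3 higher by 0.67 ± 0.12 (limma adjusted p = 0.00507). In DM against WT, Tcf4 did not pass, at 0.05 ± 0.11 (limma adjusted p = 0.741). Elf3 and Etv4, ETS genes best known from epithelia, were lower in Npm1c than in WT by −1.05 ± 0.14 (limma adjusted p = 0.00123) and −0.86 ± 0.17 (limma adjusted p = 0.00577). Ldb2 stood at 0.00 ± 0.30 in Flt3-ITD against WT and at 2.01 ± 0.30 in DM against Flt3-ITD (limma adjusted p = 0.00142). It had only 5 regions, 2 of them gained in DM against Flt3-ITD, so the difference rests on few peaks.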
